A study of Mus musculus with 6 samples.

Results

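The genes described here are the cell-surface receptors and co-receptors through which BMPs and activins signal: the type I receptors Bmpr1a, Acvr1, Acvrl1 and Acvr1b, the type II receptors Bmpr2, Acvr2a and Acvr2b, the co-receptors Rgma and Rgmb, and neogenin (Neo1). They were chosen by name, 10 genes out of the 34981 in the deposited table of gene abundances. A row was matched for 9 of the 10, and all 9 passed the filter on low counts that left 12929 genes tested; Acvr1b was not analysed here. The cells were B16F10, a mouse melanoma line selected for metastasis, grown as spheroids embedded in Matrigel. BMP2-treated cultures received 100 ng/ml BMP2 for 10 days (3 cultures), and untreated cultures received the PBS vehicle for the same time (3 cultures). Each of 3 batches held 1 culture of each kind, so the batch number pairs them. All 6 libraries come from this 1 cell line, and the RNA is from whole cultures, in which fewer cells of a kind and less RNA per cell cannot be told apart.

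BMPs and activins bind a complex of type I and type II serine/threonine kinase receptors. The type II receptor phosphorylates the type I receptor, which phosphorylates SMAD1, SMAD5 and SMAD9 after BMP binding, or SMAD2 and SMAD3 after activin binding. RGM proteins are GPI-anchored co-receptors that bind BMPs, and neogenin is a receptor for both RGM proteins and netrins.

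The libraries held 27821911, 34571447 and 36856498 estimated counts in BMP2 cultures 1 to 3, against 35274731, 36493982 and 32311939 in PBS cultures 1 to 3. PBS culture 1 stood apart: it lay at -79.7 on the first principal component, which carried 50% of the variance, against -16.8 to 55.5 for the other 5 libraries. Values without it or without batch 1 are given for Bmpr1a, Bmpr2, Acvrl1, Acvr2b and Rgma. The summed level of 7 melanocyte markers was 28870 to 39071 CPM (counts scaled to library size) in BMP2 cultures and 23669 to 26310 CPM in PBS cultures, all 7 being detected. The part of this difference in the receptor values was not tested.

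None of the 9 genes passed the test. With edgeR's quasi-likelihood test without a batch term, 0 of 9 had a Benjamini-Hochberg adjusted p under 0.05, against 6 of 12929 tested genes (0.0464%), and 0 of 9 had an unadjusted p under 0.05, against 5.38% of tested genes. With the batch as a block, 0 of 9 had an adjusted p under 0.05, against 95 genes (0.735%). At an unadjusted p under 0.05 in that fit, 3 of 9 passed (Acvrl1, Acvr2b and Rgma), against 2200 tested genes (17.0%) in either direction. All 3 were lower in BMP2 cultures, as were 1150 tested genes (8.89%). The same 3 were lower in BMP2 than in PBS cultures in all 3 batches, as were 21.1% of tested genes. Bmpr2 was higher in all 3 batches, as were 22.8%. For no member did the 3 BMP2 and 3 PBS values fail to overlap, against 6.42% of tested genes not overlapping with BMP2 higher and 5.72% with BMP2 lower. Without the block the adjusted p of the 9 members ran from 0.883 to 0.977. Also without a batch term, DESeq2 called 0 of 9 (1, Acvr2b, at an unadjusted p under 0.05), and limma 0 of 9 (0 unadjusted). The median log2 fold change was -0.09 over the 9 members and 0.01 over all tested genes without the block, and 0.04 and 0.01 with it, so the sign of the members' median depends on the fit. Without regard to sign, the median without the block was 0.27 over the members and 0.24 over all tested genes.

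Members differed in level. Per kilobase of merged exons, Acvrl1 averaged 28.8 CPM per kb over the 6 libraries, Bmpr1a 21.8, Neo1 19.9, Bmpr2 5.83, Acvr1 5.15, Acvr2a 3.24, Rgma 1.90, Rgmb 1.56 and Acvr2b 0.953. Neo1 exceeded Bmpr2 in 6 of 6 libraries, the widest step in that order. Neighbours elsewhere in it were not separated in every library: Acvrl1 exceeded Bmpr1a in 5 of 6, Bmpr1a exceeded Neo1 in 4, Bmpr2 exceeded Acvr1 in 4, Acvr1 exceeded Acvr2a in 5, Acvr2a exceeded Rgma in 5, Rgma exceeded Rgmb in 4 and Rgmb exceeded Acvr2b in 5. Acvrl1 stood above 87.7% of tested genes per length, Bmpr1a above 84.3%, Neo1 above 82.7% and Acvr2b above 19.9%. This order depends on the length of the merged exons, 17983 bases for Bmpr2 and 4265 for Acvrl1. In plain CPM, Bmpr2 averaged 116 in BMP2 cultures and 93.9 in PBS cultures. Acvrl1 averaged 106 and 139 CPM, and Neo1, the highest member on that scale, 182 and 165 CPM.

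**Figure D1:**
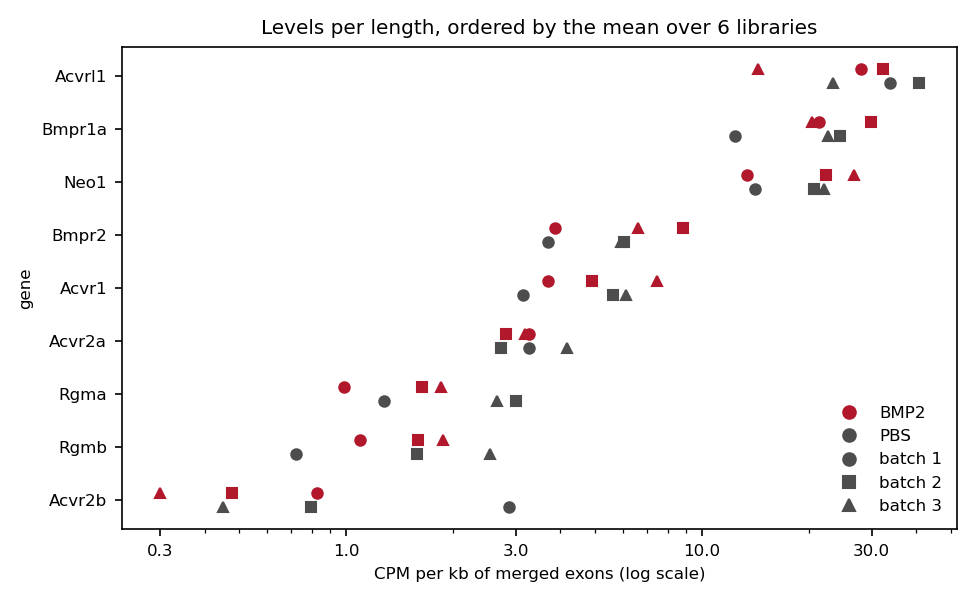
Level of each of the 9 genes in CPM per kilobase (x axis, log scale), BMP2 cultures in red and PBS cultures below them in grey, the marker giving the batch. Acvrl1, Bmpr1a and Neo1 lie above the other 6, and within a gene the red and grey points overlap.

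The stretches of RefSeq promoter (GRCm38.p6) that lie before the annotated exon at the RefSeq start are shown for 3 members because they are the highest type I receptor with a RefSeq window (Bmpr1a), the lowest member (Acvr2b) and the RGM receptor (Neo1). Capitals mark GGCGCC, a SMAD1/5-type site, or GTCT and its reverse complement AGAC, a SMAD3/4-type site.
Bmpr1a, chr14:34502688-34502796 (minus strand): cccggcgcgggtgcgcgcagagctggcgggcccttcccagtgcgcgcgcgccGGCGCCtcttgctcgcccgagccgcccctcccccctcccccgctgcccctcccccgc
Acvr2b, chr9:119401928-119402117 (plus strand): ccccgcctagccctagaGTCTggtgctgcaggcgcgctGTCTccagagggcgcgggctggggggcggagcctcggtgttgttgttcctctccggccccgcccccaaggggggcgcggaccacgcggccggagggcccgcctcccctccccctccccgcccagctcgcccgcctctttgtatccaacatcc
Neo1, chr9:59036442-59036691 (minus strand): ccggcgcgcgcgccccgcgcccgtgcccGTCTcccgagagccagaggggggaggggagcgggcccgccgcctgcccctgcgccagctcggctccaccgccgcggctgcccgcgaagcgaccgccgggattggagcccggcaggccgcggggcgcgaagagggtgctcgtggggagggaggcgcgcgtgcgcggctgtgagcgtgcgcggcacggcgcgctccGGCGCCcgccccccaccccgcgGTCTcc
The Acvr2b and Neo1 stretches end at the boundary of the annotated gene, while the Bmpr1a stretch lies inside it, in an intron of a longer annotated transcript. The Bmpr1a stretch holds 1 GGCGCC and no GTCT, the Acvr2b stretch no GGCGCC and 2 GTCT, and the Neo1 stretch 1 GGCGCC and 2 GTCT. RefSeq windows (250 bases before to 50 after the gene start) were found for 8 of the 10 members. They number 10, since Rgmb has 3. GGCGCC was present on either strand in 5 of the 10 windows (Bmpr2, Neo1, Bmpr1a, Acvr1b and 1 of Rgmb), against 3898 of 32851 promoters overall (11.9%). GGCGCC holds only G and C, and the share over all promoters was not matched for GC content. The stretches shown are 84.4% (Bmpr1a), 74.7% (Acvr2b) and 83.2% (Neo1) G or C. GTCT was present in 9 of the 10 windows, against 88% of all promoters. A match describes these letters and is not a binding site.

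The type I receptors set the class of SMAD that is phosphorylated. Bmpr1a (ALK3, a high-affinity BMP2 receptor; ENSMUSG00000021796, chr14:34410734-34503341 on GRCm38, minus strand) had 136, 190 and 130 CPM in BMP2 cultures 1 to 3, against 78.5, 155 and 143 CPM in PBS cultures 1 to 3. BMP2 was higher in batches 1 and 2 and lower in batch 3, and the groups overlapped. Its log2 fold change was 0.31 (SE 0.19, 95% interval -0.15 to 0.77, adjusted p = 0.439) with the batch as a block. Without the block the log2 fold change was 0.27, and 0.02 when PBS culture 1 was also left out. With the block and without batch 1 it was 0.066.

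Acvr1 (ALK2, a receptor for BMPs and activins; ENSMUSG00000026836, chr2:58388644-58567157) had 17.8, 23.6 and 36.0 CPM in BMP2 cultures, against 15.2, 27.1 and 29.5 CPM in PBS cultures. The direction differed between batches, and the log2 fold change with the block was 0.11 (interval -0.29 to 0.50, adjusted p = 0.762). Acvrl1 (ALK1, a receptor for BMP9 and BMP10; ENSMUSG00000000530, chr15:101128522-101145336) had 120, 137 and 61.5 CPM in BMP2 cultures, against 144, 174 and 99.7 CPM in PBS cultures. It was lower in BMP2 in each batch, though the groups overlapped, and averaged 106 ± 39.7 CPM in BMP2 cultures and 139 ± 37.3 CPM in PBS cultures (SD, n = 3 each). The log2 fold change was -0.44 with the block (SE 0.14, interval -0.77 to -0.10, unadjusted p = 0.0182, adjusted p = 0.22) and -0.39 without it (adjusted p = 0.883). Without PBS culture 1 it was -0.37 in the fit without the block (adjusted p = 0.961). With the block and without batch 1 it was -0.53 (adjusted p = 0.0683). Acvrl1 is best known from endothelial cells. Of 7 endothelial markers, Cdh5 and Tek had 0 counts in all 6 libraries and Kdr 1 count in all, while Vwf had 12.97, 15.1 and 4.32 CPM in BMP2 cultures, against 4.78, 7.87 and 8.50 CPM in PBS cultures. Pecam1 had 2.02, 0.847 and 0.724 CPM in BMP2 cultures, against 1.76, 1.63 and 0.988 CPM in PBS cultures. Vwf and Pecam1 make up nearly all of the marker sum, which was 5.07 to 15.97 CPM in BMP2 cultures and 6.54 to 9.53 CPM in PBS cultures.

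**Figure D2:**
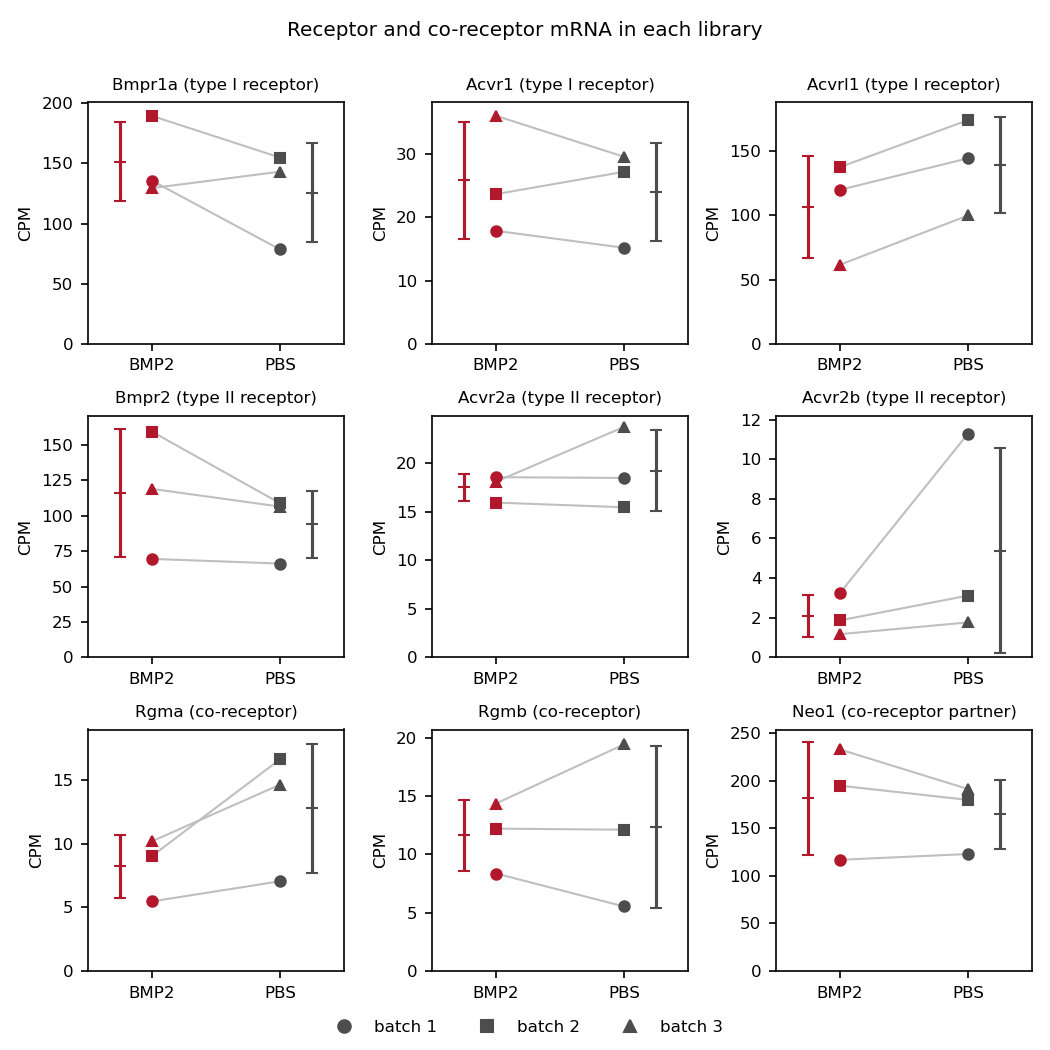
CPM of each of the 9 genes in every library, BMP2 cultures left of PBS cultures; lines join cultures of 1 batch. Acvrl1, Acvr2b and Rgma are lower in BMP2 in all 3 batches, and the groups overlap in every panel.

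Among the type II receptors, Bmpr2 (BMP type II receptor; ENSMUSG00000067336, chr1:59763400-59879014) had 69.6, 159 and 119 CPM in BMP2 cultures, against 66.3, 109 and 106 CPM in PBS cultures. It was higher in BMP2 in each batch, by 0.07, 0.55 and 0.16 on the log2 scale. The log2 fold change with the block was 0.26 (SE 0.14, interval -0.08 to 0.60, adjusted p = 0.394). Without the block the log2 fold change was 0.31, and -0.0052 when BMP2 culture 2 was also left out. Without PBS culture 1 it was 0.10 in the fit without the block. With the block it was 0.12 without batch 2 and 0.35 without batch 1 (adjusted p = 0.18). Acvr2a (activin type II receptor that BMPs also use; ENSMUSG00000052155, chr2:48814109-48903269) had 18.6, 15.97 and 18.1 CPM in BMP2 cultures, against 18.5, 15.5 and 23.8 CPM in PBS cultures. Batches 1 and 2 were nearly level, and the log2 fold change with the block was -0.11 (interval -0.52 to 0.29, adjusted p = 0.749). Its 3′ end overlaps Orc4 on the other strand, and 7.32% of its 31-mers are shared. With the counting strand not given, reads from that overlap cannot be assigned to either gene, while the rest of its 31-mers are its own. Orc4 (an origin recognition subunit) had 57.1, 34.9 and 26.6 CPM in BMP2 cultures, against 104, 62.5 and 56.9 CPM in PBS cultures, and fell with the block (log2 fold change -0.93, adjusted p = 0.0379). It was not called without the block (adjusted p = 0.852). The antisense genes that overlap Rgma, Bmpr1a and Acvrl1 shared 4.12%, 4.08% and 1.66% of the members' 31-mers.

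Acvr2b (the other activin type II receptor; ENSMUSG00000061393, chr9:119402118-119434995) was the lowest member, with 3.25, 1.87 and 1.17 CPM in BMP2 cultures, against 11.3, 3.12 and 1.77 CPM in PBS cultures. The means were 2.10 ± 1.06 CPM in BMP2 cultures and 5.39 ± 5.15 CPM in PBS cultures (SD, n = 3 each). PBS culture 1 was the highest library, at 347 counts, against 95, 64 and 47 in BMP2 cultures and 111 and 59 in the other PBS cultures. The log2 fold change was -1.06 with the block (SE 0.33, interval -1.86 to -0.26, unadjusted p = 0.0164, adjusted p = 0.215) and -1.36 without it (adjusted p = 0.883). Without PBS culture 1 it was -0.23 in the fit without the block. With the pairing kept, it was -0.67 without batch 1 (adjusted p = 0.327), and the differences within batches 1 to 3 were -1.78, -0.72 and -0.57.

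Rgma (repulsive guidance molecule A, a BMP co-receptor; ENSMUSG00000070509, chr7:73375509-73419899) had 5.48, 9.05 and 10.2 CPM in BMP2 cultures, against 7.06, 16.7 and 14.7 CPM in PBS cultures. It was lower in BMP2 in each batch, by 0.36, 0.88 and 0.52 on the log2 scale, and the groups overlapped, batch 1 being the lowest in both. The means were 8.25 ± 2.47 CPM in BMP2 cultures and 12.8 ± 5.07 CPM in PBS cultures (SD, n = 3 each). The log2 fold change was -0.59 with the block (SE 0.20, interval -1.06 to -0.13, unadjusted p = 0.0197, adjusted p = 0.226) and -0.63 without it (adjusted p = 0.883). Without PBS culture 1 it was -0.93 in the fit without the block (adjusted p = 0.736). With the block and without batch 1 it was -0.71 (adjusted p = 0.079). Rgmb (the related co-receptor DRAGON; ENSMUSG00000048027, chr17:15803188-15831039) had 8.35, 12.2 and 14.4 CPM in BMP2 cultures, against 5.53, 12.1 and 19.4 CPM in PBS cultures. Its direction differed between batches, and the log2 fold change with the block was 0.04 (interval -0.52 to 0.61, adjusted p = 0.940). Neo1 (neogenin; ENSMUSG00000032340, chr9:58874687-59036441) had 117, 195 and 233 CPM in BMP2 cultures, against 123, 180 and 191 CPM in PBS cultures, and the batch-blocked log2 fold change was 0.11 (interval -0.21 to 0.43, adjusted p = 0.698).

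**Figure D3:**
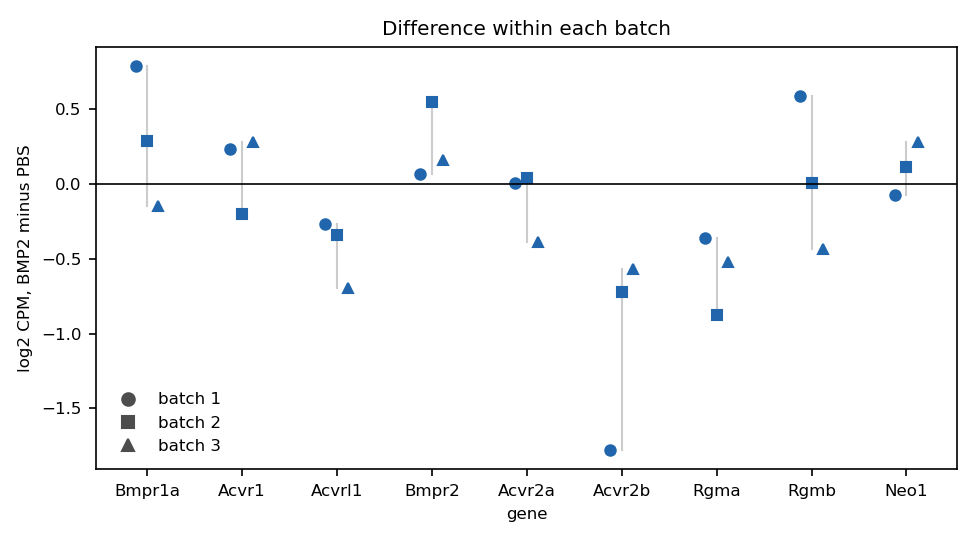
Log2 difference of BMP2 minus PBS within each batch for the 9 genes. Acvrl1, Acvr2b and Rgma lie below 0 in all 3 batches and Bmpr2 above 0 in all 3.

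Ratios between members of the same library were looked at after the values were seen and carry no test. Of the 36 pairs of members, 5 had ratios per kilobase whose BMP2 and PBS values did not overlap, close to the 13.1% of all pairs of tested genes. All 5 contained Rgma, so they are not separate observations. Over Rgma alone, the ratios of 5 of the 8 other members did not overlap, against 22.3% of the other tested genes. Rgma was singled out because all 5 pairs held it, and the 8 ratios share it. No conclusion about the members is drawn from the difference between these shares. Neo1 over Rgma was 13.6, 13.7 and 14.5 in BMP2 cultures, against 11.1, 6.87 and 8.30 in PBS cultures. Bmpr1a over Rgma was 21.6, 18.3 and 11.1 in BMP2 cultures, against 9.71, 8.12 and 8.52 in PBS cultures. Rgma over Rgmb was 0.907, 1.03 and 0.984 in BMP2 cultures, against 1.77, 1.90 and 1.04 in PBS cultures.

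**Figure D4:**
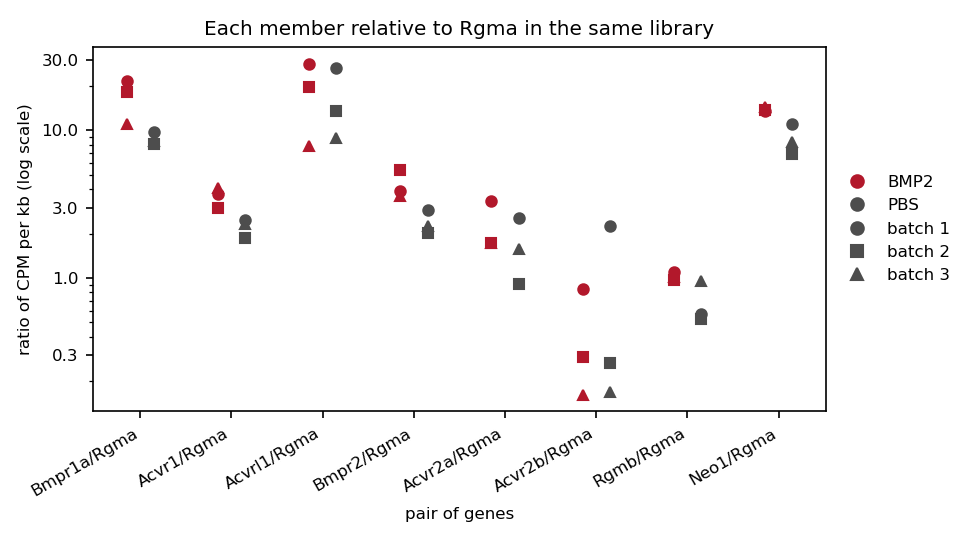
Ratio of each other member to Rgma within a library, in CPM per kilobase (y axis, log scale), BMP2 cultures left of PBS cultures. The ratios of Bmpr1a, Acvr1, Bmpr2, Rgmb and Neo1 to Rgma do not overlap between groups.

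The other genes of the pathway are given by list. At an unadjusted p under 0.05 with the block, 1 of 6 tested receptors passed (Tgfbr3), 0 of 3 ligands, 2 of 8 SMADs (Smad9 and Smad6), 1 of 6 antagonists (Nog), 3 of 13 proteins acting on the receptors (Lrig2, Lrig3 and Map3k7), 1 of 3 netrin and neogenin partners (Unc5b) and 9 of 12 BMP target genes. Over all tested genes 17.0% passed, and the shares of the receptors, the SMADs, the antagonists and the proteins acting on the receptors are near it. The lists with 3 tested genes are too small to compare. Nog, Smad9 and Smad6 are also counted among the 9 BMP target genes. Without the block, the median log2 fold change was 0.16 over the receptors, 0.08 over the ligands, 0.26 over the SMADs and 0.17 over the antagonists. It was 0.02 over the proteins acting on the receptors, 0.28 over the netrin and neogenin partners and 3.10 over the BMP target genes. Over all tested genes it was 0.01. Of 11 further superfamily receptors 6 were tested, and 0 were called in either fit. Tgfbr1 (the TGF-beta type I receptor) had a batch-blocked log2 fold change of 0.25 (adjusted p = 0.396), Tgfbr2 0.19 (adjusted p = 0.681) and Eng (endoglin, a co-receptor) 0.26 (adjusted p = 0.355). Tgfbr3 (betaglycan, a co-receptor for TGF-beta and inhibin) had 8.11, 8.85 and 5.54 CPM in BMP2 cultures, against 8.75, 12.8 and 15.6 CPM in PBS cultures (log2 fold change -0.71 with the block, unadjusted p = 0.0452, adjusted p = 0.284). Bmpr1b, the other high-affinity BMP type I receptor, had 3 counts in 1 PBS library and 0 in the other 5, and Hjv (hemojuvelin, the RGM relative of liver and muscle) had 1 count in 1 BMP2 library. Acvr1c had 0, 18 and 24 counts in BMP2 cultures, against 7, 12 and 2 in PBS cultures.

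Of 26 ligands 3 were tested and 0 were called; Bmp2 itself had 0 counts in all 6 libraries. The log2 fold changes with the block were 0.15 for Gdf11 (adjusted p = 0.729), -0.19 for Inha, the inhibin alpha chain (adjusted p = 0.829), and 0.34 for Gdf9 (adjusted p = 0.831). Of 8 SMADs all 8 were tested and 1 rose with the block: Smad9 (a BMP-responsive SMAD) had 7.63, 17.0 and 26.4 CPM in BMP2 cultures, against 1.04, 1.43 and 1.11 CPM in PBS cultures, a log2 fold change of 3.69 (adjusted p = 0.0241). Without the block its adjusted p was 0.0802. Smad6, an inhibitory SMAD, had 3.70, 11.0 and 21.4 CPM in BMP2 cultures, against 1.07, 0.927 and 0.659 CPM in PBS cultures, and did not pass (log2 fold change 3.47 with the block, adjusted p = 0.0665). Smad3 had a log2 fold change of 0.40 (adjusted p = 0.302).

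Of 15 antagonists 6 were tested and 1 rose with the block, Nog (noggin, which binds and blocks BMPs), with 19, 878 and 348 counts in BMP2 cultures, against 2, 2 and 1 in PBS cultures (log2 fold change 7.61, adjusted p = 0.0241; without the block 0.21). The follistatin-like proteins Fstl1 and Fstl3 had log2 fold changes of -0.27 (adjusted p = 0.383) and -0.77 (adjusted p = 0.415) with the block. Bambi, a pseudoreceptor that dampens BMP signalling, had a log2 fold change of -0.04 (adjusted p = 0.947).

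Of 15 proteins acting on the receptors 13 were tested and 0 were called. Lrig2 and Lrig3 (transmembrane leucine-rich repeat proteins) had log2 fold changes of -0.62 (adjusted p = 0.168) and -0.76 (adjusted p = 0.252) with the block, and Map3k7 (the kinase TAK1) 0.66 (adjusted p = 0.226). Of 9 netrin and neogenin partners 3 were tested and 0 were called. Unc5b, a netrin receptor, had 7.05, 19.6 and 10.4 CPM in BMP2 cultures, against 3.32, 6.49 and 6.44 CPM in PBS cultures (log2 fold change 1.13 with the block, adjusted p = 0.11). It was higher in BMP2 in all 3 batches. Unc5c and Ntn4 had log2 fold changes of -0.46 (adjusted p = 0.428) and 0.29 (adjusted p = 0.663). Of 18 BMP target genes 12 were tested, and 4 rose with the block (Id2, Smad9, Atoh8 and Nog) while 0 were called without it. Id2 (an inhibitor of bHLH factors) had 186, 438 and 717 CPM in BMP2 cultures, against 32.7, 79.9 and 65.7 CPM in PBS cultures (log2 fold change 2.80, adjusted p = 0.0152). Atoh8 (a bHLH factor) had 47, 223 and 343 counts in BMP2 cultures, against 0, 8 and 3 in PBS cultures (log2 fold change 5.74, adjusted p = 0.0241). Not all targets were higher: Runx2 (a bone transcription factor, named after its values were seen) had 17, 18 and 29 counts in BMP2 cultures, against 131, 64 and 60 in PBS cultures (log2 fold change -1.97, adjusted p = 0.124). The 12 are the targets that passed the filter on low counts, and Nog and Atoh8 had few counts outside the BMP2 cultures.

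**Figure D5:**
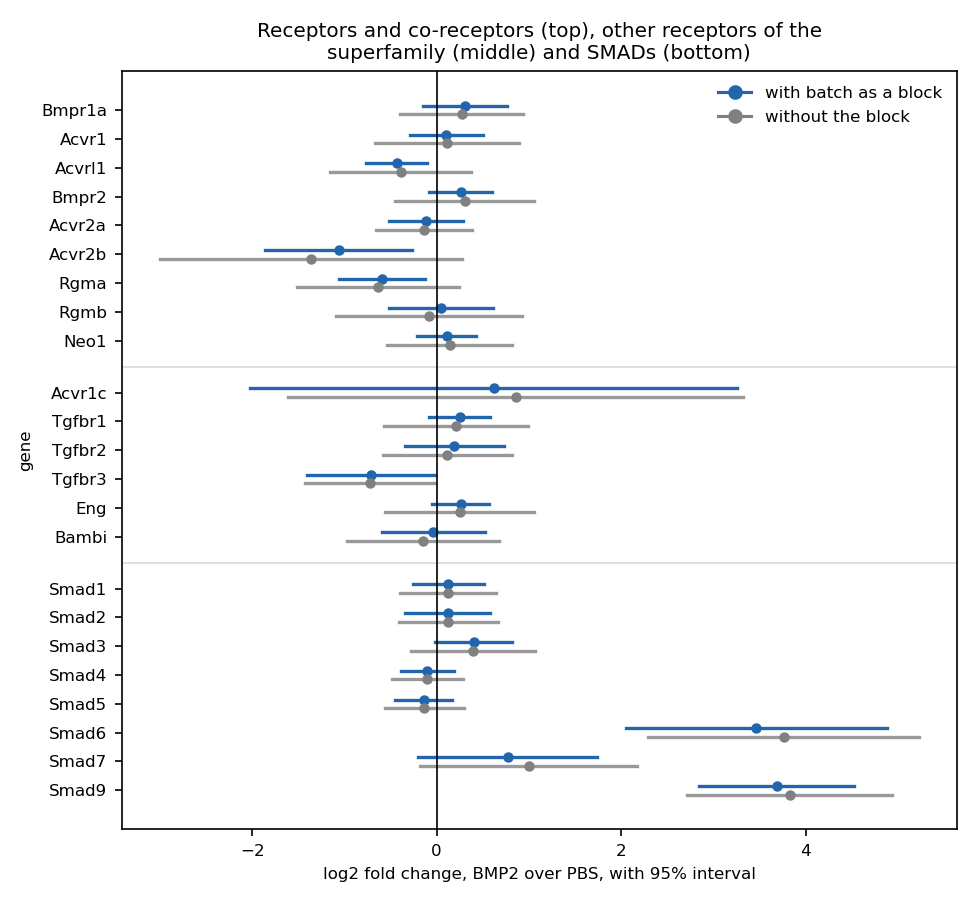
Log2 fold change (BMP2 over PBS) of each gene with its 95% interval, with and without the batch as a block. The genes shown are the 9 members (top), other receptors (middle) and SMADs (bottom). Among the members, the intervals of Acvrl1, Acvr2b and Rgma exclude 0 with the block only.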

How the data were processed

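Total RNA of 6 B16F10 spheroid cultures was sequenced. The deposited table holds estimated counts per Ensembl gene, for which the submitters' processing notes list kallisto 0.44.0 and GRCm38.p6. Neither the transcript annotation used nor how transcripts were summed to genes is given in the sources used here. The estimated counts were rounded to whole numbers. Symbols, positions and lengths came from GENCODE M21, which matched 34679 of 34981 identifiers. Genes were filtered on low counts with edgeR's filterByExpr, scaled by TMM, and tested across all 12929 genes with edgeR's quasi-likelihood test (edgeR 4.0.16, R 4.3.3) with Benjamini-Hochberg adjustment; the code was tested on simulated data. CPM values use the TMM-scaled library sizes. The main test has no batch term; the fit with batch as a block is given beside it. The labels give the batch of each culture. Deviations from the group mean correlated at 0.514, 0.248 and 0.518 between cultures of 1 batch, and at -0.513 to 0.0265 between batches. Since each group of 3 was centred on its own mean, the values between batches are not independent of those within batches. The alternatives used DESeq2 1.42.0 and limma 3.58.1 among others. Named were all members, the genes of each list that passed in either fit, filled to at most 3 by p, and Bmpr1b, Acvr1c, Tgfbr1, Tgfbr2, Hjv, Eng and Bambi. Members and lists were chosen with earlier results of these data known. Promoter letters came from RefSeq.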

Additional observations from a re-analysis of the deposited data

How the results depend on the processing

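No member was called under any of 15 alternatives (0 of 9 each time; the lowest adjusted p was 0.0683, for Acvrl1, with the block and 1 batch left out). At an unadjusted p under 0.05, DESeq2 gave 1 member (Acvr2b) and limma 0, both without a batch term. Over all genes, 6 were called without the block, 95 with the replicate block, 35 with no filter, 4 with a mean of at least 100 counts, 130 with DESeq2, 2 to 10 with 1 library left out, and 531, 27 and 218 without batches 1, 2 and 3 in the paired fit. Pathway genes called numbered 0 without the block, 4 with the replicate block, 6 with no filter, 8 with DESeq2, 0 to 3 with 1 library left out and 3 to 9 with 1 batch left out of the paired fit. With 1 batch left out, the paired fit keeps 1 residual degree of freedom for estimating spread. With all 6 libraries it keeps 2, and the fit without the block keeps 4. Counts and adjusted p with 1 batch left out are therefore not directly comparable with those of all 6 libraries. With 1 library or batch left out, the log2 fold change changed sign for 5 members: Acvr1 ranged from -0.21 to 0.32 (negative without BMP2 replicate 3 or PBS replicate 1), Acvr2a from -0.26 to 0.051 (positive without PBS replicate 3, or, at 0.024, without batch 3 in the paired fit), Bmpr2 from -0.0052 to 0.57 (negative without BMP2 replicate 2), Neo1 from -0.082 to 0.38 (negative without BMP2 replicate 3 or PBS replicate 1) and Rgmb from -0.44 to 0.40 (positive without BMP2 replicate 1, PBS replicate 3, and, in the paired fit, at 0.070 without batch 2 and 0.30 without batch 3). Acvr1, Bmpr2 and Neo1 changed sign only in fits without the block. With the block and 1 batch left out, Acvr1 ranged from 0.013 to 0.26, Bmpr2 from 0.12 to 0.35 and Neo1 from 0.020 to 0.19. With the replicate block alone Rgmb was 0.044. The cause was not tested. Acvr2b ranged from -1.82 to -0.23, Acvrl1 from -0.63 to -0.12 and Rgma from -0.93 to -0.39 with 1 library left out. Summing members with near-identical copies was not run, since no member shares 80% of its 31-mers with another gene. With 3 cultures a group, the intervals above show how closely each change was estimated, and those of the low members Acvr2b, Rgma and Rgmb are the widest. They are not adjusted for the number of genes tested. With the block those of Acvrl1, Acvr2b and Rgma exclude 0, yet none of these genes was called.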
